A study of Aedes albopictus with 6 samples.

Results

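Of 8690 circular RNAs (circRNAs) listed for whole bodies of the Asian tiger mosquito Aedes albopictus, 473 had mixed junction ends, which means that the authors' table placed the start and the end of the back-splice junction in different kinds of annotated region. A circRNA was counted as a member when its region label was neither exon-exon, intron-intron nor intergenic-intergenic, after the lines of the table were collapsed to 1 row per contig, start, end and strand. The members came in 6 combinations of exon, intron and intergenic ends and named 398 host genes. The libraries were made from whole bodies of virgin females and virgin males of the Foshan strain, 2 days old, with 3 pools of 30 mosquitoes per sex. All pools were unmated and of the same strain and age, and no pool was treated. Each pool mixes every tissue of 30 animals, so no value refers to a single animal or organ.

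A circRNA forms when the spliceosome joins a downstream donor site, at the end of an exon, backwards to an upstream acceptor site, at the start of the same or an earlier exon. The joined ends leave a junction whose order is reversed relative to the genome, and reads over that junction are what was counted here. RNase R, which digests linear RNA from free ends and largely spares circles, was used in these libraries, per the labels' protocols. Most known circRNAs use annotated exon edges at both ends. An end in an intron or outside every gene marks a junction that the gene annotation does not hold as an exon edge.

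Females 1, 2 and 3 had 16792, 17197 and 13322 junction reads in all, and males 1, 2 and 3 had 21624, 24852 and 27257. The depth per library was thus higher in every male library than in every female library. Mixed-end circRNAs supplied 3046 of the 121044 junction reads, or 2.52%, while making up 5.44% of the circRNAs.

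The mixed ends fell mainly into the 4 combinations with 1 exonic end. In the authors' order of start and end along the contig, 129 circRNAs were intron-exon with 841 reads, and 114 were exon-intergenic with 918 reads. A further 110 were exon-intron with 593 reads, and 84 were intergenic-exon with 514 reads. The combinations without an exonic end were small: 18 intergenic-intron circRNAs had 95 reads and 18 intron-intergenic circRNAs had 85 reads. Members had few reads, with a median of 3 over the 6 libraries and a mean of 6.44, against a median of 4 and a mean of 15.2 for the 7156 exon-exon circRNAs. At least 15 reads were found for 30 members (6.34%) and for 1406 exon-exon circRNAs (19.6%). Intergenic-intergenic circRNAs also had a median of 3 reads, with a mean of 8.63, and 9.09% of them had at least 15. The most abundant member was an exon-intergenic circRNA of the uncharacterized gene LOC109423304 with 177 reads, and it was followed by an intron-exon circRNA of a glutathione S-transferase gene (LOC109401280), a detoxification enzyme, with 120 reads.

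The start and end of the label follow the contig and not the transcript, so each end was assigned as acceptor or donor from the strand of the circRNA. All 447 members whose host gene had coordinates in the table lay on the strand of that gene. Among the 437 members with 1 exonic end, the end outside exons was the acceptor in 285 (65.2%) and the donor in 152 (34.8%). For intronic ends there were 156 acceptors (65.3%) and 83 donors, and for intergenic ends 129 acceptors (65.2%) and 69 donors. The excess of acceptors was present on both strands, with 146 acceptors against 85 donors on the plus strand and 139 against 67 on the minus strand. Intergenic donors were unevenly spread, with 49 on the plus strand and 20 on the minus strand, while intergenic acceptors numbered 64 and 65.

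**Figure D1:**
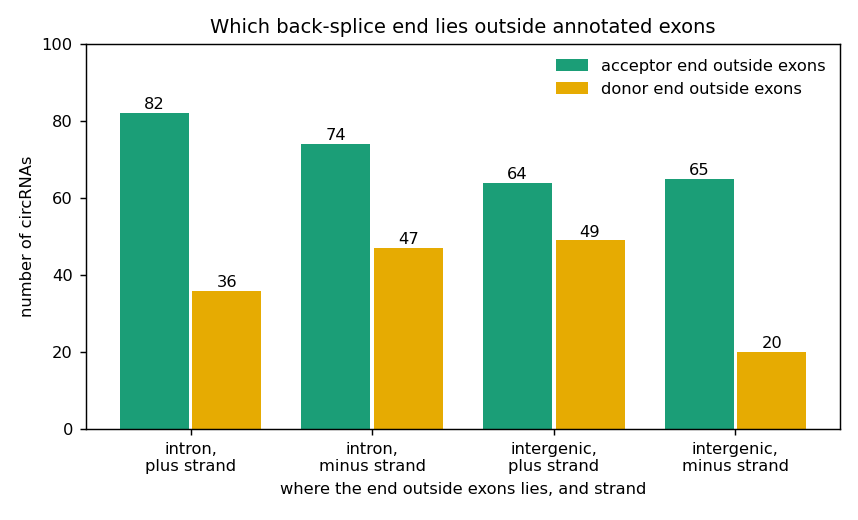
Number of mixed-end circRNAs (vertical axis) whose end outside exons is the acceptor (green) or the donor (yellow), by where that end lies and by strand (horizontal axis). Bars are counts of circRNAs, and the acceptor bar is the taller of each pair, from 64 against 49 for intergenic ends on the plus strand to 65 against 20 on the minus strand.

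The acceptor share was of similar size in every library. Of members with reads and 1 exonic end, the acceptor was the end outside exons in 59.4%, 70.1% and 65.1% in females 1, 2 and 3, against 63.5%, 68.8% and 68.5% in males 1, 2 and 3. The values of the sexes overlapped. By reads the imbalance was smaller, with 1698 reads (59.2%) for outside acceptors and 1168 for outside donors. Among members found in at least 2 libraries the acceptor share was 66.1%.

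Many intergenic acceptors lay just outside the host gene. The 209 members with an intergenic end and host gene coordinates had the other end inside the gene, on its strand. By this layout an intergenic acceptor can lie only upstream of the gene (134 circRNAs) and an intergenic donor only downstream (75 circRNAs). The median distance to the annotated edge was 456.5 bases for acceptors (quartiles 8.5 and 12901.5) and 325.0 bases for donors (quartiles 111.5 and 2816). Within 20 bases of the edge lay 41 acceptors (30.6%) and 6 donors (8.0%). Whether the table counts start positions from 0 or from 1 was not settled, so each distance may be off by 1 base.

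The pile-up had a narrow centre. Exactly 4 bases upstream lay 10 acceptors and exactly 5 bases upstream lay 11, in 19 genes, with 9 on the plus strand and 12 on the minus strand. No donor lay at these distances. Their host genes were of many kinds, among them uncharacterized genes, and those named here were chosen after their values were seen. An ultraviolet-sensitive opsin-like gene (LOC115265343), a visual pigment, had 1, 1 and 0 reads in females and 4, 7 and 2 reads in males. The neuropeptide SIFamide receptor gene (LOC109402751) gave 2 such circRNAs from the same acceptor, with 0, 2 and 0 reads in females and 4, 2 and 0 in males for the shorter, and 0, 0 and 0 in females and 4, 0 and 3 in males for the longer. A pyrokinin-1 receptor-like gene (LOC109405399) also gave 2, each with reads in a single female library. The serotonin receptor gene LOC109621483 was among them as well, with no female read and 3, 0 and 1 reads in males.

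**Figure D2:**
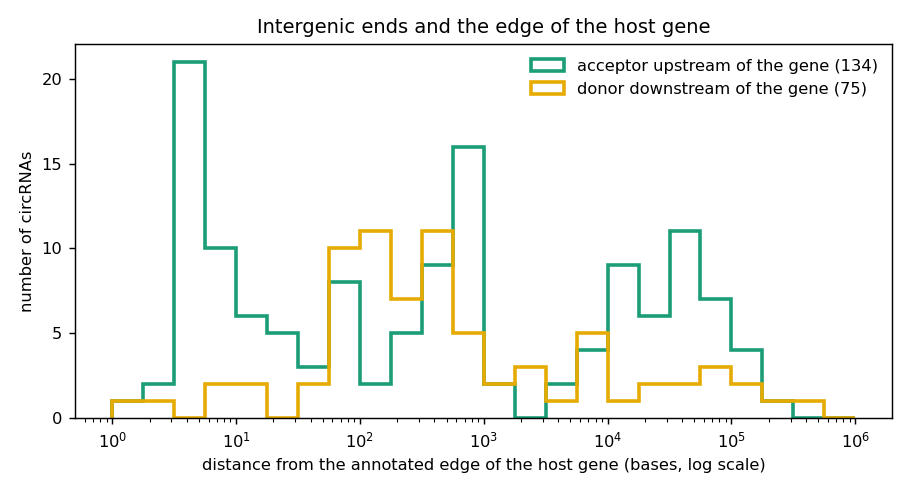
Distance of intergenic ends from the annotated edge of the host gene (horizontal axis, bases, log scale) against the number of circRNAs (vertical axis), for 134 acceptors upstream (green) and 75 donors downstream (yellow). The tallest bin holds the 21 acceptors at 4 or 5 bases, and 38 acceptors and 12 donors lie beyond 10000 bases.

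Intergenic ends also reached far from the gene. More than 10000 bases outside it lay 38 acceptors and 12 donors, and the largest distance was 345346 bases, for a donor. An example with recurrent reads was restin homolog (LOC109417226), a microtubule plus-end protein in humans, whose acceptor 23575 bases upstream of the gene was used by 2 circRNAs. These circRNAs had reads in female 3, male 2 and male 3.

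Mixed-end circRNAs spanned more of the contig than exon-exon circRNAs, with a median span of 7087 bases against 1260. Circles with an intronic end were the longer kind. The median was 12349 bases for intron-exon (quartiles 1563 and 51882), 10908.5 for exon-intron, 1643 for exon-intergenic and 1659 for intergenic-exon circRNAs. It was 1757 for intergenic-intron and 20689.5 for intron-intergenic circRNAs, with 18 circRNAs in each. Spans over 100000 bases were found for 46 members (9.73%) and 103 exon-exon circRNAs (1.44%). They were also found for 38 intergenic-intergenic circRNAs (7.20%), whose median span was 749 bases. The longest member spanned 450868 bases and the shortest 203.

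Among members with an intronic end, spans were shorter in the classes with more reads. For members with an exonic and an intronic end, the median span was 21917 bases at 2 reads in total, 12349 at 3 to 4 reads, 9113 at 5 to 14 reads and 4001 at 15 reads or more. In these classes 60.8%, 56.2%, 49.1% and 21.4% of them spanned more than 10000 bases. With an exonic and an intergenic end the median was 8878.5, 1973, 1249 and 1285 bases, and 48.3%, 37.7%, 19.6% and 40.0% spanned more than 10000 bases, the last of 15 circRNAs. For exon-exon circRNAs the median was 1222, 1379.5, 1409 and 1051 bases, and the shares over 10000 bases were 27.0%, 28.0%, 24.5% and 13.0%, so these also were lowest in the class with most reads. Among members with at least 5 reads the median span over all combinations was 1724 bases, against 1220 for exon-exon circRNAs. Outside acceptors also went with longer spans (median 12012 bases) than outside donors (1903.5 bases).

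**Figure D3:**
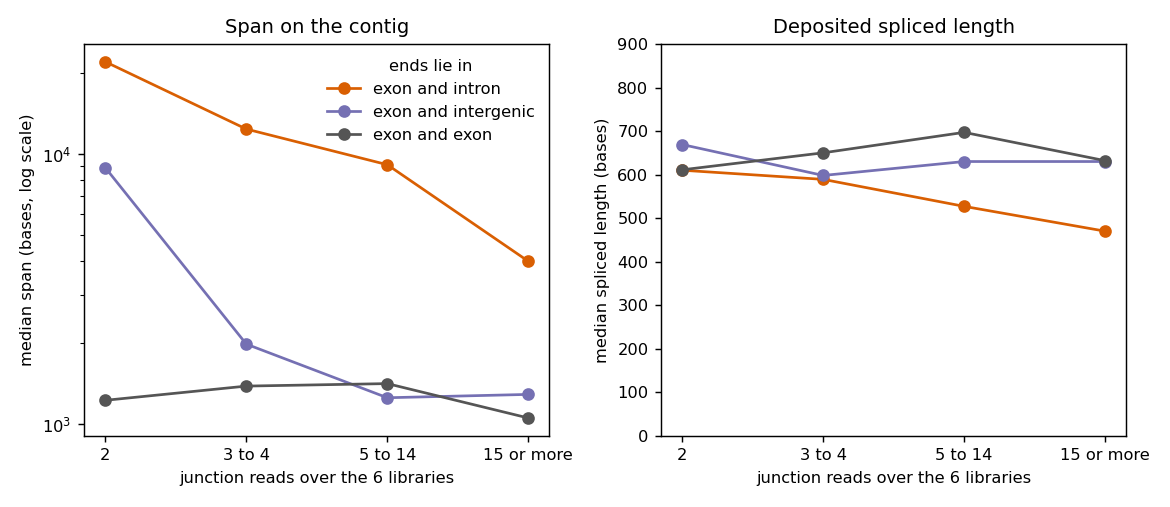
Median span on the contig (left, bases, log scale) and median deposited spliced length (right, bases) against the junction reads of a circRNA summed over the 6 libraries, for an exonic and an intronic end (orange), an exonic and an intergenic end (purple) and 2 exonic ends (grey). Points are medians over circRNAs. The orange span is 21917 bases at 2 reads and 4001 bases at 15 or more, while spliced lengths lie between 470 and 697 bases.

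Spliced lengths differed far less. The authors' spliced length had a median of 601 bases over the 449 members with a value and 650 bases over exon-exon circRNAs. It equalled the span, or the span less 1 base, for 1440 exon-exon circRNAs (20.1%) and for 0 members. A member's spliced length appears to hold the annotated exon parts alone. Of 151 members that shared their exonic end with an exon-exon circRNA, 80 (53.0%) had exactly the spliced length of the nearest such circRNA although the other end lay elsewhere. The spliced length is therefore no measure of the intronic or intergenic stretch in these circles.

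Mixed-end circRNAs recurred across libraries less than exon-exon circRNAs, and so did intergenic-intergenic circRNAs. Of the 528 intergenic-intergenic circRNAs, 63.4% had reads in a single library and 3.98% in all 6. For the 533 intron-intron circRNAs these shares were 46.0% and 6.75%. Reads in a single library were found for 282 of 473 members (59.6%) and 41.0% of exon-exon circRNAs, and reads in all 6 libraries for 12 members (2.54%) and 11.1% of exon-exon circRNAs. By combination, the share in a single library was 58.9% for intron-exon, 60.5% for exon-intergenic, 66.4% for exon-intron and 50.0% for intergenic-exon circRNAs. It was 61.1% for each of the combinations without an exonic end. Recurrence rises with reads, and members had fewer reads, so the comparison was repeated by total reads. At 3 reads in total 69.6% of members and 63.9% of exon-exon circRNAs were in 1 library, at 4 reads 50.0% and 40.2%, and at 5 reads 43.8% (14 of 32) and 23.8%. In the class of 5 to 9 reads they were 28.0% (26 of 93) and 14.1%, with means of 6.33 reads for members and 6.45 for exon-exon circRNAs. Intergenic-intergenic circRNAs stood above the members at 3 reads (77.1%) and 4 reads (55.4%) and below them at 5 to 9 reads (20.2%). These shares are descriptions, since circRNAs of the same libraries are not replicates.

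The exonic end of a mixed-end circRNA was often an end of another circRNA. It was shared at the exact base for 168 of 437 exonic ends (38.4%), 151 of them with an exon-exon circRNA, while 27.3% of the ends of exon-exon circRNAs were shared with any other. Intergenic ends were shared in 35 of 234 cases and intronic ends in 26 of 275 (9.45%). Counting ends within 2 bases as shared gave the same numbers for members. For each of the 151 members the exon-exon partner with most reads was taken: it had more reads than the member in 120, the same number in 9 and fewer in 22. The median was 3 reads for members and 14 for partners. Taking the partner with most reads tilts both comparisons toward the partners.

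From the nearest partner the free end of the member lay a median of 11012 bases away, and the member was the longer circle in 131 of 151 cases. Free acceptors lay farther off (median 21598 bases, 99 circRNAs) than free donors (2437 bases, 52 circRNAs). In 7 members the free end lay within 20 bases of the partner's, and 6 of these were acceptors. All 7 were longer than the partner with the same spliced length. The labels largely fix this, since an end so close on the inner side would lie in the exon and be labelled exonic. The pair with most reads came from a GATA zinc finger domain-containing protein 10-like gene (LOC109420230; contig NW_021838153.1, minus strand). Its mixed-end circle (44995989 to 45010613) had an intronic acceptor 15 bases from that of an exon-exon circle (44995989 to 45010598). The mixed-end circle had 2, 2 and 8 reads in females and 8, 5 and 13 in males, and the exon-exon circle had 6, 4 and 7 reads in females and 24, 15 and 15 in males. The exon-exon circle had more reads in 5 of the 6 libraries, and female 3 was the exception. Another came from a gene for a potassium channel beta subunit (LOC109411905), whose mixed-end circle lay 18 bases beyond its partner and had 5 reads against 233.

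Host genes of mixed-end circRNAs were mostly protein-coding, and long non-coding RNA (lncRNA) genes held a larger share of them than of all circRNAs. Of the circRNAs of lncRNA genes, 29 of 91 (31.9%) had mixed ends, against 415 of 7619 (5.45%) for protein-coding genes. In 25 of 67 lncRNA genes with circRNAs (37.3%) at least 1 was mixed-ended, and 348 of 3791 protein-coding genes (9.18%) had one. The ends of the lncRNA circles lay outside the gene rather than in introns: 19 were exon-intergenic, 8 intergenic-exon, 1 intron-exon and 1 intron-intergenic. By product name, genes for channels, receptors and synapses held 13.5% of the members, against 9.22% of all circRNAs with a host gene. Genes without a known product held 31.5% and 21.9%, whereas transporter genes held 1.48% and 3.41%.

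Most host genes (349 of 398) gave 1 mixed-end circRNA, 49 gave at least 2 and 14 gave at least 3. Exon-exon circRNAs were also listed for 222 of the host genes (55.8%), and 167 (42.0%) had mixed-end circRNAs alone. Dystonin (LOC109422269), a cytoskeletal linker, had 7 with 29 reads among its 30 circRNAs, of which 5 had an intronic donor, and their summed reads were 6, 0 and 12 in females and 4, 3 and 4 in males. Restin homolog had 6 with 32 reads, summing to 0, 3 and 4 in females and 4, 8 and 13 in males. The calcium-activated potassium channel slowpoke gene (LOC109398458), which shapes action potentials, had 5 with 28 reads, summing to 2, 4 and 0 in females and 8, 10 and 4 in males. Other genes of membrane excitability with several were the small conductance calcium-activated potassium channel-like gene (LOC109399236, 4 circRNAs) and the sodium channel genes para (LOC109421922, 4) and para-like (LOC109432678, 3).

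RING finger protein 150 (LOC109621516), a protein of the RING finger family of ubiquitin ligases, was the sole gene among the 14 whose listed circRNAs were all mixed-ended. All 4 were intron-exon with an intronic acceptor, spanned 159887 to 192675 bases and were found in at least 2 libraries each. Their summed reads were 0, 2 and 2 in females and 9, 5 and 9 in males, so every male library lay above every female library, at male depths that were also higher. The remaining genes of the 14 were the lncRNA gene LOC115263644, the G(q) alpha subunit (LOC109426688), low-density lipoprotein receptor-related protein 2 (LOC109415314), the uncharacterized LOC109401980, protein phosphatase 1 regulatory subunit 14B (LOC109398302), couch potato-like (LOC109403728) and oxidation resistance protein 1 (LOC109622365). Summed over the 3 circles of each, the female and male reads were 8 and 33 for LOC115263644, 4 and 30 for G(q), 6 and 8 for the receptor-related protein and 2 and 11 for LOC109401980. For the phosphatase subunit they were 0 and 11, for couch potato-like 0 and 8, and for oxidation resistance protein 1 0 and 7. Each circle of these last genes had reads in a single library. By male library the sums were 4, 4 and 3 for the phosphatase subunit and 6, 0 and 2 for couch potato-like. They were 4, 0 and 3 for oxidation resistance protein 1.

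Several members had a look-alike at another gene. In 5 pairs the spans of 2 members at different host genes differed by at most 2 bases, the spliced lengths were the same, and the acceptor and donor lay in the same kinds of region. Circles of the muscarinic acetylcholine receptor DM1-like genes LOC109431029 and LOC115262774 both spanned 974 bases with 962 spliced, and had acceptors 12 and 11 bases upstream of the gene. Circles of para and para-like spanned 866 and 864 bases with 100 spliced. The uncharacterized genes LOC109427210 and LOC115254075 gave circles of 1194 and 1193 bases with 600 spliced. The other 2 pairs came from patronin genes (567 and 565 bases) and from helicase C29A10.10c genes (3014 and 3016 bases). Reads of near-identical genes may have been split between them, so the reads of each are uncertain.

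The number of mixed-end circRNAs with reads was lower in females than in males, as listed and after thinning to equal depth. With a minimum of 2 reads at equal depth the libraries overlapped. Reads were found for 105, 124 and 90 members in females 1, 2 and 3, against 173, 187 and 195 in males 1, 2 and 3. Every male library lay above every female library. After thinning each library to 13322 reads, the depth of the smallest, the expected number was 102 ± 13.6 in females and 148 ± 5.01 in males (SD, n = 3 each). With at least 2 reads after thinning it was 79.2 ± 4.15 in females and 76.7 ± 3.82 in males, and the libraries overlapped. The same held over all circRNAs, with means of 2911 in females and 4249 in males as listed, 2809 in females and 3540 in males after thinning, both without overlap, and 2141 in females and 2164 in males, with overlap, at 2 reads after thinning. A junction with 1 read in a library is listed if another library has at least 2, so the 1-read counts also depend on the other libraries. Thinning came after listing, so a junction listed through 2 reads in a deeper male library can still count with 1 read. Junctions that never had more than 1 read in a library were not listed at all. The thinned numbers at 1 read therefore cannot decide whether the sexes differ at equal depth. In these whole-body pools, fewer cells of a type and less RNA per cell cannot be told apart.

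The share of junction reads from mixed-end circRNAs was 2.59 ± 0.15% in females and 2.45 ± 0.15% in males (SD, n = 3 each), and the libraries overlapped. Exon-intergenic circRNAs had 0.905%, 0.930% and 0.901% of the reads in females, against 0.573%, 0.728% and 0.664% in males, without overlap. Exon-intron circRNAs had 0.685%, 0.488% and 0.698% in females, against 0.462%, 0.398% and 0.374% in males, also without overlap. In each case the lack of overlap depended on 1 circRNA. Without the LOC109423304 circle the exon-intergenic shares averaged 0.652% in females and 0.579% in males and overlapped. Without the LOC115254075 circle the exon-intron shares averaged 0.504% in females and 0.380% in males and overlapped. The exon-intron difference of female minus male was then 0.124 percentage points in place of 0.212, so more of it remained.

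The other combinations overlapped between the sexes. Intron-exon circRNAs averaged 0.551 ± 0.240% in females and 0.772 ± 0.103% in males, and intergenic-exon circRNAs 0.372 ± 0.016% in females and 0.452 ± 0.081% in males. Without its top circRNA, from the lncRNA gene LOC115270137, the intergenic-exon combination did not overlap, at 0.325% in females and 0.384% in males. Intergenic-intron circRNAs averaged 0.062 ± 0.016% in females and 0.088 ± 0.025% in males, and intron-intergenic circRNAs 0.067 ± 0.052% in females and 0.071 ± 0.010% in males. Without its top circRNA, of LOC109417196, the intergenic-intron combination did not overlap either, at 0.042% in females and 0.081% in males. No test was made on these shares, since the members were chosen with results known.

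**Figure D4:**
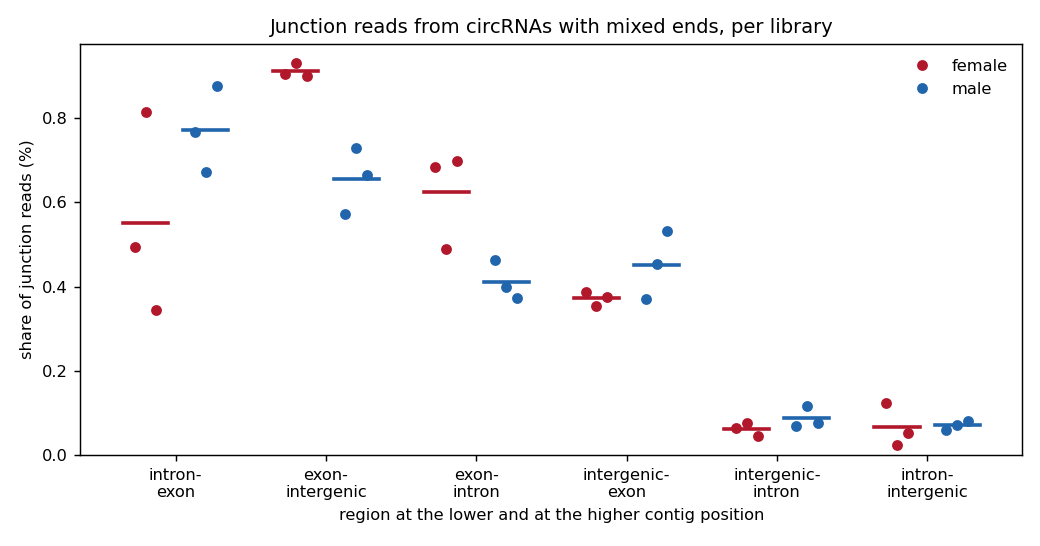
Share of the junction reads of a library that came from each combination of ends (vertical axis, percent), with females (red) left of males (blue). Points are libraries and bars are means of 3. The exon-intergenic points lie at 0.901% to 0.930% in females and 0.573% to 0.728% in males, and the libraries of the sexes overlap in the 4 combinations other than this and exon-intron.

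Read numbers allowed a test of sex for 13 of the 473 mixed-end circRNAs, and 2 of them were higher in females. Counts were tested with edgeR's quasi-likelihood test over all 738 circRNAs that passed the filter on low counts, and p-values were adjusted by Benjamini-Hochberg and called under 0.05. Of all 738, 6.64% were called, 3.79% as higher in females and 2.85% as higher in males. The other 460 members had too few reads, and 282 of these were in a single library, so for them a sex difference was not detectable at this depth. The filter takes the circRNAs with most reads, so the 13 do not stand for the whole set.

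The circle of LOC109423304 was higher in females in every library. This uncharacterized protein-coding gene gave an exon-intergenic circle on contig NW_021838153.1 (84397206 to 84415750, plus strand), with an exonic acceptor and a donor 7 bases downstream of the annotated gene end. It had 38, 41 and 42 reads in females 1, 2 and 3, against 18, 19 and 19 in males 1, 2 and 3, and the groups did not overlap. Per 10000 reads of the TMM-scaled library its level was 26.0 ± 4.16 in females and 7.62 ± 0.72 in males (SD, n = 3 each). The log2 fold change of female over male was 1.76 (SE 0.36, edgeR adjusted p = 0.000442), or 3.39-fold. The call held in all 6 fits that left out 1 library and was lost without a filter on low counts (edgeR adjusted p = 0.0584).

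The same downstream end was used by another circle of LOC109423304. That circle started farther upstream (84385972 to 84415750) and had 7, 4 and 1 reads in females and 1, 0 and 2 in males, so female 3 overlapped the males. It had too few reads for the test. The exon-exon circle of the gene had 31, 0 and 6 reads in females and 3, 8 and 5 in males, which overlapped, with a log2 fold change of 1.83 (edgeR adjusted p = 0.121). Summed over its 3 circRNAs the gene stood at 37.2 ± 10.2 in females and 10.6 ± 0.55 in males per 10000 reads, and its log2 fold change was 1.80 with an SE of 0.30 (edgeR adjusted p = 0.000191). Without the mixed-end circles, which held 78.4% of its reads, the exon-exon circle remained, and the log2 fold change was again 1.80 but did not pass (edgeR adjusted p = 0.258).

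The circle of LOC115254075 was the other one called. This uncharacterized protein-coding gene gave an exon-intron circle on contig NW_021837267.1 (39692200 to 39693393, minus strand) with an intronic acceptor. It had 28, 19 and 11 reads in females 1, 2 and 3, against 4, 6 and 14 in males 1, 2 and 3. Female 3 had fewer reads than male 3, but per 10000 reads the groups did not overlap, at 12.1 ± 4.65 in females and 3.11 ± 1.72 in males. The log2 fold change was 1.92 (SE 0.56, edgeR adjusted p = 0.0190). Its 3 female libraries and 1 male library were over the cutoff of the filter, which asks for 3 libraries, so it too was tested mainly through the females. The call was lost without female 1, without female 2, without male 1 or without male 2 (edgeR adjusted p = 0.161, 0.0673, 0.160 and 0.151) and without the filter on low counts (0.423). An exon-exon circle with the same donor and the same spliced length of 600 bases, its acceptor 257 bases nearer, had 1, 0 and 0 reads in females and 0, 0 and 3 in males. The look-alike circle of LOC109427210 had 15, 1 and 2 reads in females and 0, 2 and 3 in males, which overlapped.

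A further 2 tested members had libraries that did not overlap between the sexes but missed the threshold. Over all 738 circRNAs tested, 27% did not overlap. The intron-exon circle of C-1-tetrahydrofolate synthase (LOC109411581), an enzyme of folate metabolism, had 0, 0 and 1 reads in females and 6, 14 and 12 in males. Its level was 0.24 ± 0.42 in females and 4.25 ± 1.43 in males per 10000 reads, and the log2 fold change was -3.97 with an SE of 1.34 (edgeR adjusted p = 0.0574). Without female 3, which held its sole female read, it passed (edgeR adjusted p = 0.0221), and no fold is given because the remaining females had no read. This circle passed the filter through the males alone, where it was high, so a difference between the sexes was built into its being tested. Its intronic acceptor lay 5898 bases upstream of that of an exon-exon circle with the same donor and the same spliced length of 469 bases, which had 50, 70 and 54 reads in females and 60, 74 and 142 in males. Its level per 10000 reads was 37.0 ± 5.53 in females and 36.3 ± 13.2 in males (SD, n = 3 each), and its log2 fold change was 0.02 (edgeR adjusted p = 0.975). The exon-intergenic circle of the uncharacterized gene LOC109418672, with an acceptor 700 bases upstream of the gene, had 5, 7 and 8 reads in females and 1, 3 and 3 in males. Its log2 fold change was 2.13 with an SE of 1.03 (edgeR adjusted p = 0.224). It passed the filter through the females alone, so its lack of overlap is likewise tied to the filter.

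The other 9 tested members overlapped between the sexes. The circle of glutathione S-transferase (LOC109401280), with an intronic donor, varied most among females, with 3, 26 and 0 reads in females against 40, 30 and 21 in males. Its log2 fold change was -1.09 (edgeR adjusted p = 0.291). Over the 6 fits without 1 library it ranged from -3.67 to -0.57 (edgeR adjusted p from 0.00577 to 0.618). The value of -3.67 (edgeR adjusted p = 0.00577) came without female 2, which held 26 of the 29 female reads. Its exon-exon partner, which shares the acceptor, had 1, 2 and 7 reads in females and 6, 14 and 14 in males, fewer than the mixed-end circle in all males and in 2 of the 3 females. The circle of nipped-B (LOC109409124), which loads cohesin onto chromosomes, had 1, 4 and 4 reads in females and 12, 5 and 17 in males (edgeR adjusted p = 0.408). It was one of the short circles with an intronic acceptor, with a span of 655 bases.

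Of the 9, 3 were near 0 in their fitted change or changed sign with the processing. The circle of tyrosine-protein kinase Btk29A-like (LOC109423693), with an acceptor 21 bases upstream of the gene, had 12, 9 and 7 reads in females and 10, 22 and 11 in males, a log2 fold change of 0.03. A somatomedin-B domain gene (LOC109400336) had 3, 5 and 9 reads in females and 7, 3 and 16 in males (0.10). The lncRNA gene LOC115256172, whose donor lay 1 base outside the gene, had 16, 8 and 10 reads in females and 4, 14 and 22 in males (0.47). The circles of a probable serine/threonine-protein kinase (LOC115254206), of LOC115270137, of LOC115253787 and of LOC109420230 had log2 fold changes of -0.81, -0.53, -0.37 and -0.39, with edgeR adjusted p from 0.654 to 0.833.

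Over the 13 tested members, 6 had a higher fitted level in females and 7 in males, and the median log2 fold change was -0.37, against -0.01 for all 738 circRNAs. Since 2 of the 13 passed the filter through 1 sex alone, these numbers describe the tested members and no others.

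**Figure D5:**
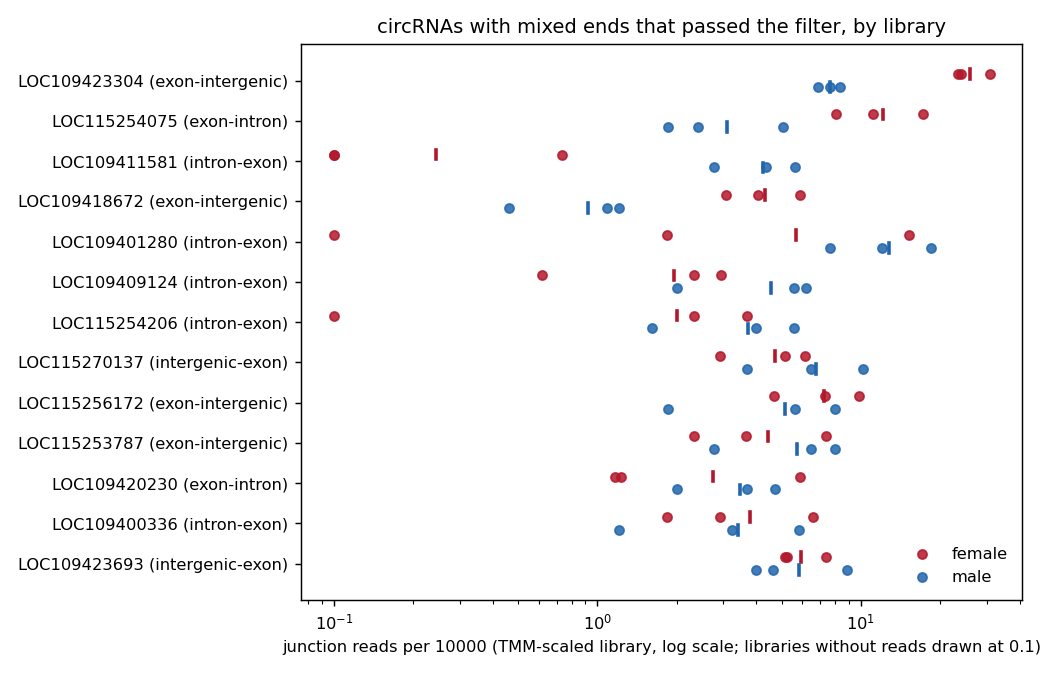
Junction reads per 10000 of the TMM-scaled library (horizontal axis, log scale) for the 13 mixed-end circRNAs that passed the filter, with females (red) above males (blue) for each gene. Points are libraries, ticks are means of 3, and libraries without reads are drawn at 0.1. LOC109423304 has means of 26.0 in females and 7.62 in males, and its points of the sexes lie apart.

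Among all 473 members, 107 (22.6%) had no male read and 233 (49.3%) no female read, while of all 8690 circRNAs listed 19.3% had no male read and 37.6% no female read. Since males had more reads in all, these shares are not comparable between the sexes. At least 2 female libraries and no male library held reads of 6 members (1.27%), against 1.78% of all circRNAs. At least 2 male libraries and no female library held reads of 52 of the 473 members, against 11.4% of all circRNAs.

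Members found in females alone had at most 10 reads. An exon-intron circle of a heterogeneous nuclear ribonucleoprotein Q-like gene (LOC109621271), an RNA-binding protein gene, had 3, 4 and 3 reads in females and none in males. Its level was 5.24-fold higher in females when the male libraries together are set at 3 reads. That value makes no allowance for counting error in the 10 female reads, and the circle was picked for having no male read. The others named by the rule had reads in 2 female libraries: mitochondrial enolase superfamily member 1-like (LOC109418108; 5, 0 and 4 reads), the uncharacterized LOC115254252 (4, 2 and 0), afadin-like (LOC115259774; 3, 3 and 0), a junction protein gene, and renin receptor (LOC109432145; 3, 0 and 2).

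Members found in males alone reached 13 reads. An intron-exon circle of the G(q) alpha subunit gene, which couples receptors to phospholipase C, had no read in females and 2, 5 and 6 in males. Its level was 2.75-fold lower in females when the female libraries together are set at 3 reads. That value makes no allowance for counting error in the 13 male reads, and the circle was picked for having no female read. The other 2 mixed-end circles of G(q) had 0, 3 and 0 and 1, 0 and 0 reads in females, and 0, 2 and 7 and 2, 1 and 5 reads in males. A prominin-like circle (LOC109432183) had no read in females and 6, 3 and 4 in males, and its annotated exonic part was only 24 bases of a span of 375. The intergenic-exon circle of restin homolog had 0, 6 and 7 reads in males. An exon-intergenic circle of the lncRNA gene LOC115258055 had 2, 3 and 7, and an exon-intron circle of otoferlin-like (LOC109428456), a membrane fusion protein gene, had 1, 5 and 4. None of these 3 had a read in females. Reads this few were not tested.

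Of 7 host genes called between the sexes, 6 passed also without their mixed-end circRNAs. Reads were summed over all circRNAs of each host gene and tested in the same way over 870 genes, of which 4.83% were called, 2.53% as higher in females and 2.3% as higher in males. Of the 127 host genes of members that passed the filter, 7 were called, 5 as higher in females and 2 as higher in males. Higher in females were LOC115256201, LOC109423304, the F-actin-uncapping protein gene LRRC16A (LOC109398163), TRPL translocation defect protein 14 (LOC109408212) and MICAL-like protein 1 (LOC109398825). Higher in males were an ABC transporter G family member gene (LOC109432219) and the potassium channel beta subunit gene LOC109411905. Without its mixed-end circles LOC109423304 did not pass. Its log2 fold change was again 1.80, but it then came from the exon-exon circle alone. Female 1 held 31 of the 37 female reads of that circle and female 2 held 0, and the sexes overlapped. In the other 6 genes the mixed-end circles held between 0.504% and 4.51% of the reads. Leaving out so few reads could hardly change a call, so these 6 calls say little about the mixed-end circles.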

How the data were processed

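Per the labels' protocols, total RNA from whole bodies was depleted of ribosomal RNA, treated with RNase R, made into directional KAPA libraries and sequenced in pairs on a HiSeq X. Bowtie2 2.1.0 was used, per the submitters' processing notes. The caller, the build and the annotation stay unnamed: not given in the sources used here. Sex and replicate number come from the titles and labels of the samples, and the 3 replicates per sex are separate pools.

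Back-splice junction reads were deposited by the authors as raw counts, in 30393 lines collapsed here to 8690 circRNAs, each with 2 or more reads in some library. The deposited table of CPM values, scaled by TMM by the authors as its title says, holds 764 circRNAs and 14 members. With 1 scaling factor for each library, 100% of the CPM values turned into whole reads within 0.01, and these recovered reads gave 47 calls in place of 49. Spliced length, host gene, product and region label are the authors' values. Span is end minus start.

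Counts were fitted with edgeR 4.0.16 (R 4.3.3) over all circRNAs, using TMM, filterByExpr (minimum count 5, minimum total 15) and a quasi-likelihood F test of the sexes. DESeq2 1.42.0 served as an alternative. Log2 fold changes put females over males. Their SE was taken as the absolute change divided by the root of F. In simulated counts for 738 circRNAs, 23% of 2-fold and 67% of 4-fold changes were recovered, and 5 of 538 unchanged ones were called. Reads carry no molecular identifiers, so floors and counts cover no error beyond counting error. The floor of 3 reads covers it only in the sex without reads. Figures were drawn with matplotlib 3.10.9.

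Named circRNAs were those tested, the 3 with most reads and the extremes of span per combination, up to 5 per sex found in that sex alone, genes with at least 3 members, and end-sharing partners. Circles at 4 or 5 bases from a gene edge, close pairs and look-alikes were named after their values were seen. Members and lists were chosen with earlier results of these data known.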

Additional observations from a re-analysis of the deposited data

How the results depend on the processing

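With no filter on low counts, the test called 3 circRNAs as higher in females in place of 28, 0 in place of 2 with mixed ends, and 4 host genes of members in place of 7. Leaving out 1 library at a time gave 11 to 29 circRNAs higher in females and 12 to 26 higher in males. It gave 1 to 2 members higher in females, 0 to 1 higher in males and 2 to 11 host genes. The member called higher in males was LOC109401280 without female 2 and LOC109411581 without female 3, when no female read of it was left. The sign of 3 fitted changes turned: LOC115256172 was -0.017 without male 1 and -0.017 to 0.82 over fits without 1 library; LOC109400336 was -0.20 without a filter and -0.55 to 0.66 over fits without 1 library; LOC109423693 was -0.018 with DESeq2, -0.29 without a filter and -0.29 to 0.36 without 1 library.

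The female minus male share for all members was 0.14 percentage points and -0.045 without the LOC109423304 circle, which also took the exon-intergenic difference to 0.073 in place of 0.257. Keeping circRNAs with at least 2 reads in 2 libraries gave 0.0068 for intergenic-intron in place of -0.026. The female minus male number with reads was -78.7 for all members, -45.7 thinned, -53.3 at 2 reads and 2.52 at 2 reads thinned. Thinned, and at 2 reads thinned, it was -17.6 and -3.16 for intron-exon, -8.54 and 2.38 for exon-intergenic, -3.78 and 5.55 for exon-intron and -11.3 and -1.53 for intergenic-exon. At 2 reads without thinning, exon-intron gave -5.67 and intergenic-exon -10.7. At 2 reads thinned, intergenic-intron gave -0.86 and intron-intergenic 0.14. At 2 reads per library 75.5% of members were in 1 library in place of 59.6%. At 5 or more reads the median span was 1724 bases for all members, 4105 for exon-intron, 1044 for intergenic-exon and 1036 for intergenic-intron. The filter of 10 reads in 3 libraries removed LOC109411581, LOC109418672, LOC109409124, LOC115254206, LOC109420230 and LOC109400336, and LOC109411581 also fell under the filter without male 2 or without male 3, so these gave no value there. The cause of these shifts was not tested. The recovered reads and the 2-read minimum after thinning were chosen after seeing the data, as was leaving out the top circRNA of each combination.

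Same-numbered females and males did not deviate together (correlations 0.02, 0.0014 and -0.02), so the numbers share no known pairing. With the replicate number as a block, 28 and 21 circRNAs and 2 members were called, and 9 host genes of members.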
